A study of Mus musculus with 13 samples.

Results

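The 39 protein-coding Hox genes of the mouse were described here in all 13 libraries of a study of Xist loss. They are the rows whose identifier the GRCm38 annotation gives a symbol of Hoxa, Hoxb, Hoxc or Hoxd followed by a number, out of 38377 genes in the table. No measured value entered that choice. They form 4 clusters on GRCm38, with 11 Hoxa genes on chromosome 6 (52155590 to 52260880), 10 Hoxb genes on chromosome 11 (96194316 to 96368256), 9 Hoxc genes on chromosome 15 (102921103 to 103036852) and 9 Hoxd genes on chromosome 2 (74668310 to 74765142). None of these clusters lies on the X chromosome.

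RNA came from female mouse cell lines of a pair of types. Extraembryonic endoderm (XEN) cells descend from the primitive endoderm and were wild type (2 libraries), carried a deletion of the paternal Xist allele (3), or were wild type or deleted and treated with 20 uM 5-aza-2'-deoxycytidine (2 each). That drug (Aza below) is an inhibitor of DNA methylation (treatment time not given in the sources used here). Epiblast stem cells (EpiSC), cultured on matrigel in FGF2 and Activin, gave 2 wild-type libraries and 2 with a heterozygous Xist deletion. Xist is the noncoding RNA that coats and silences an X chromosome in female cells. Whether the replicates of a group were separate clones or cultures is not stated, so every p-value covers only library-to-library spread, which may be technical.

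Hox proteins are homeodomain transcription factors that give cells their position along the head-to-tail axis. Genes at the 3′ end of a cluster (paralog group 1) are switched on first and most anteriorly in the embryo, and those at the 5′ end (up to group 13) last and most posteriorly. Polycomb complexes keep the clusters silent in pluripotent cells. Retinoic acid, Wnt and FGF signals and the caudal (Cdx) factors open them as the embryo gastrulates.

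Libraries held 5848454 to 35247432 counts. Transcripts that poly(A) selection largely removes (the mitochondrial ribosomal RNAs and Rn7sk) gave 10.4% to 13.5% of the counts in 4 libraries. Those 4, of treated wild-type XEN and of replicate 2 in both EpiSC groups, are called total-like below. The share was 0.0152% to 0.279% in the other 9, called polyA-like. Xist was at 1214 to 1626 CPM in the 4 wild-type XEN libraries and at 1.16 to 4.79 CPM in the 3 untreated Xist-deleted ones. Treated libraries labelled Xist-deleted held 14.6 CPM (replicate 1) and 242 CPM (replicate 2), so the second went against its label in part. Wild-type EpiSC held 815 and 206 CPM and Xist-deleted EpiSC 0.435 and 0.276 CPM. The 10 extraembryonic endoderm markers summed to 24345 to 76755 CPM in XEN libraries and 717 to 968 CPM in EpiSC. Epiblast markers, also 10, summed to 1336 to 2083 CPM in EpiSC and 45.9 to 216 CPM in XEN, so the labelled cell types matched their markers.

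Levels are CPM, a gene's counts relative to its library's total after TMM scaling over all 13 libraries. The 39 Hox genes together gave 80 to 596 counts per XEN library and 1238 to 9250 per EpiSC library. Their summed level was 12.2 and 14.1 CPM in wild-type XEN and 261 and 151 CPM in wild-type EpiSC. In the Xist-deleted groups it was 19.1, 14.2 and 6.58 CPM in XEN and 75.8 and 57.0 CPM in EpiSC. Treated XEN held 13.3 and 15.9 CPM in wild-type cells, and 31.4 and 19.9 CPM in the libraries labelled Xist-deleted. Every EpiSC library lay above every XEN library, and both Xist-deleted EpiSC libraries lay below both wild-type ones.

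**Figure D1:**
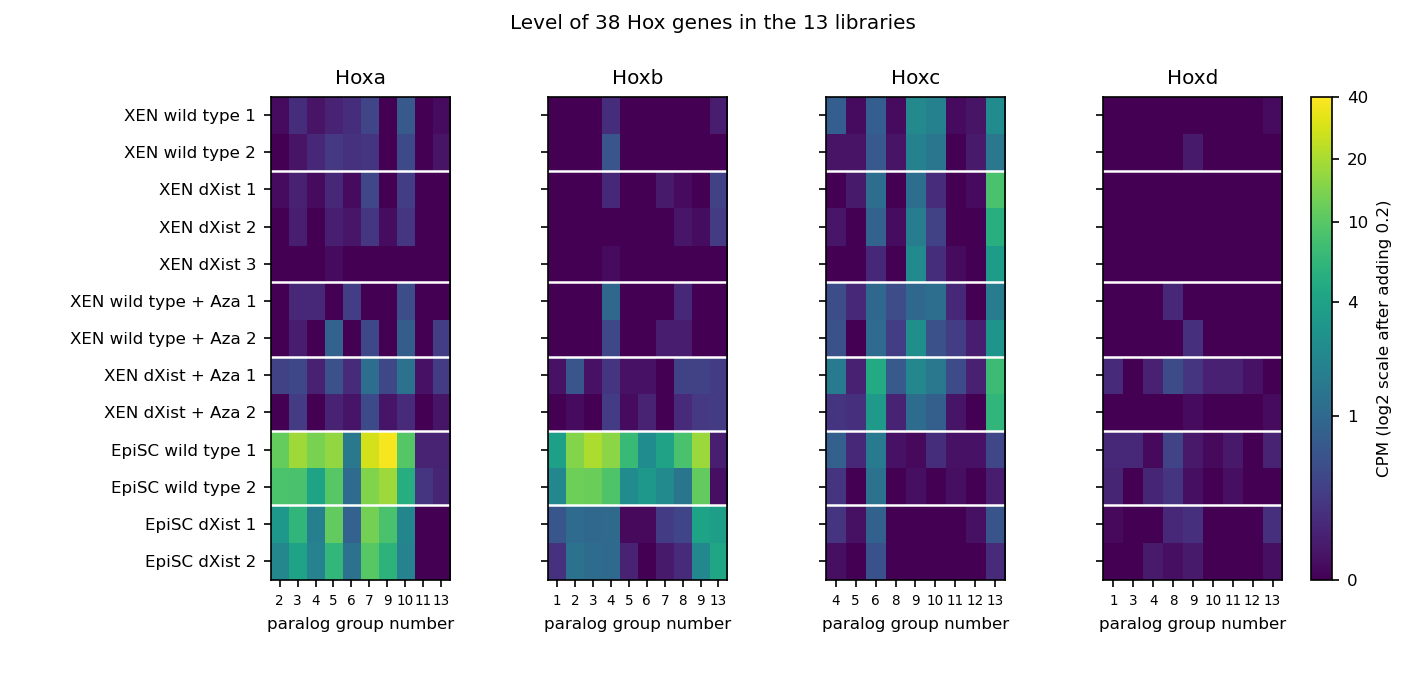
Level of 38 Hox genes (columns, by cluster and paralog group) in each of the 13 libraries (rows), as CPM on a log2 scale after adding 0.2 CPM. Hoxa and Hoxb are bright in wild-type EpiSC, XEN libraries show mainly members of Hoxc, and no Hoxd gene passes 0.490 CPM in any library.

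The clusters were used very unevenly. A level of at least 1 CPM in every library of the group was reached by 19 of the 39 genes in wild-type EpiSC, which were 9 Hoxa, 9 Hoxb and 1 Hoxc gene, and by 13 in Xist-deleted EpiSC. In XEN the number was 4 in the wild type, 2 in the Xist-deleted cells, 2 in the treated wild type (4 without its replicate 1) and 4 in the treated cells labelled Xist-deleted (8 without replicate 2). Hoxd, whose 5′ genes pattern limbs and digits, was close to silent everywhere. Its highest single value was 0.490 CPM (Hoxd8, in treated replicate 1 labelled Xist-deleted). All 9 Hoxd genes had 0 counts in the 3 untreated Xist-deleted XEN libraries, where 3 counts over the group are 0.0343 CPM for Hoxd1. No Hoxd gene passed the filter on low counts in any fit, and in wild-type EpiSC their summed level was 1.10 and 0.629 CPM.

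Reads were counted per gene with the strand setting not stated, and Hox clusters are dense with antisense transcripts. Of the exonic bases of Hoxb3, 52.9% also lie in the opposite-strand gene Hoxb3os. The share was 35% for Hoxa11, 27.3% for Hoxb2, 25.4% for Hoxa3, 20.4% for Hoxa7 and 16% for Hoxa4. Levels of these genes may therefore include antisense RNA. Those of Hoxc5, Hoxc10, Hoxd3, Hoxd4, Hoxd10 and Hoxd11 are also uncertain, because their exons share bases with another gene on the same strand (8.70% of those of Hoxc10). In bulk RNA, fewer cells expressing a gene cannot be told apart from less RNA per cell.

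Wild-type EpiSC against wild-type XEN compares the Hox levels of an epiblast-like and an endoderm-like culture. Hoxa and Hoxb genes were far higher in EpiSC and a few posterior Hoxc genes were higher in XEN. In edgeR's quasi-likelihood test with Benjamini-Hochberg adjustment over all genes, 16 of the 24 Hox genes tested were higher in EpiSC, 3 were lower and 5 did not pass (adjusted p under 0.05). Among all 19733 genes tested, 16.8% were higher and 14.1% lower (30.8% either way). The 15 other Hox genes were too low to test. The median log2 change was 6.11 over the tested Hox genes and 0.13 over all genes. Library ranges did not overlap for 19 Hox genes that were higher and 3 that were lower (36.3% and 30% of all genes). Since a gene silent in XEN could be tested only through EpiSC, these counts describe the genes that passed the filter. Some markers of other cell types were also higher in EpiSC, with the same limit. Of 12 fibroblast markers, all tested, 9 were higher and none lower (median log2 change 7.81). Of 7 tested streak and mesoderm markers 2 were higher, as were 2 of 4 tested neural markers, and none was lower. The part of such cells in the Hox differences was not tested.

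Hoxa genes from the 3′ side to the middle of the cluster differed by large factors. Hoxa2, which gives the branchial arches their identity, was at 11.2 and 8.66 CPM in EpiSC and 0.0335 and 0 CPM in XEN. Its log2 difference was 8.90 ± 1.17 (SE), with adjusted p = 0.000823.

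Hoxa9, a posterior gene best known from blood stem cells and leukaemia, was at 37.2 and 18.1 CPM in wild-type EpiSC. It had 0 counts in both wild-type XEN libraries and was at least 565-fold higher in EpiSC, taking 3 counts over the XEN group as the floor. Hoxa3, Hoxa4, Hoxa5, Hoxa7 and Hoxa10 were 103, 77.8, 62.8, 65.0 and 13.3 times higher in EpiSC as ratios of means. Hoxa6 did not pass (adjusted p = 0.0751), at 1.47 and 1.06 CPM against 0.201 and 0.223 CPM. The most posterior Hoxa genes, Hoxa11 and Hoxa13, stayed at or under 0.323 CPM in every library.

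Across Hoxb, all of Hoxb1 to Hoxb9 passed the test as higher in EpiSC, and the most 5′ gene, Hoxb13, did not. Hoxb1, which specifies a single hindbrain segment, was at 3.75 and 2.13 CPM. Hoxb2 was at 14.8 and 12.3 CPM and Hoxb3 at 20.4 and 12 CPM, next to 0 counts of each in wild-type XEN. Those zeros make the differences lower bounds: at least 60.01-fold for Hoxb1, 277-fold for Hoxb2, 331-fold for Hoxb3 and 293-fold for Hoxb9. For Hoxb5 to Hoxb8 the bounds ran from 57.1-fold to 101-fold. Hoxb4, known for expanding blood progenitors, was the one of these 9 genes with counts in wild-type XEN, at 0.201 and 0.606 CPM against 15.7 and 9.10 CPM in EpiSC. Hoxb13, a tail and prostate gene, was at 0.113 and 0.0484 CPM in EpiSC and 0.1005 and 0 CPM in XEN.

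In the Hoxc cluster the direction was the opposite. Hoxc9 was at 2.21 and 1.85 CPM in wild-type XEN and at 0.0282 and 0.0484 CPM in wild-type EpiSC (2 counts in all). Pooled counts gave a 56.8-fold higher level in XEN, with an exact 95% counting interval of 15.4 to 474, and an adjusted p of 0.0038. Hoxc10, a hindlimb gene, was at 1.84 and 1.40 CPM against 0.198 and 0 CPM, 16.4 times higher in XEN (adjusted p = 0.0497). Hoxc13, a hair and nail gene, was at 2.38 and 1.44 CPM against 0.423 and 0.0968 CPM, 7.33 times higher (adjusted p = 0.0414). Hoxc9 passed in each alternative tried. Hoxc10 did not pass with DESeq2 size factors (adjusted p = 0.0531), with a term for library type (0.0903), without wild-type XEN replicate 1 (0.118) or 2 (0.0888), or without wild-type EpiSC replicate 2 (0.131). Hoxc13 did not pass with the library type term or without any one of the 4 libraries. Without single libraries Hoxa10 and Hoxb4 also missed the threshold, Hoxa10 without each of the 4 and Hoxb4 without wild-type XEN replicate 1 or wild-type EpiSC replicate 1.

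Between genes, levels were compared per kb of exon. Among the genes named here, the highest in wild-type EpiSC were Hoxa7 at 7.43 ± 3.34 CPM per kb (SD, n = 2), Hoxa5 at 7.04 ± 2.56, Hoxa2 at 5.59 ± 1.001 and Hoxb9 at 5.58 ± 1.88. These neighbours differed by less than their SD. Of these genes the highest in wild-type XEN were Hoxc10 at 0.850 ± 0.163 CPM per kb, Hoxc9 at 0.835 ± 0.105 and Hoxc13 at 0.775 ± 0.271. None of these XEN neighbours stood apart beyond the spread. In both untreated and treated Xist-deleted XEN Hoxc13 was the highest of all, at 2.36 ± 1.03 (n = 3) and 2.77 ± 0.271 CPM per kb (n = 2).

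Genes that work with or upstream of Hox showed no common direction between the cell types. Over all genes tested, 16.8% were higher in EpiSC and 14.1% lower. Of 9 TALE-class cofactors, which bind DNA beside Hox proteins, 3 were higher in EpiSC and 2 lower. On the log2 scale Pbx3 and Pknox2 were higher by 3.17 and 2.96, and the log2 difference of Meis3 was -1.16. Of 19 tested caudal factors and retinoic acid or trunk signals, 5 were higher and 3 lower. T (brachyury) and the retinoid receptor gene Rxrg had log2 differences of 6.99 and 8.20. Those of Cyp26a1, which degrades retinoic acid, and Rxrb were -5.87 (adjusted p = 0.00154) and -1.74. Cdx1 and Cdx2 stayed under 1 CPM in every library, and Cdx4 was not analysed here. Among 24 Polycomb and Trithorax genes 5 were higher and 6 lower. Phc1, of the canonical Polycomb complex, differed by 3.24, and Cbx8 and Ezh1 by -3.44 and -2.04.

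Xist deletion in EpiSC was where Hox levels differed most between genotypes. Summed over Hoxb1 to Hoxb9, the level was 94.5 and 55.6 CPM in wild-type EpiSC and 8.64 and 6.17 CPM in Xist-deleted EpiSC, a 10.1-fold lower mean. The wild-type libraries are shared with the comparison of cell types above. Within the polyA-like libraries (replicate 1) it was 10.9-fold lower, and within the total-like libraries (replicate 2) 9.02-fold lower. Hoxa summed to 128 ± 48.5 CPM (SD, n = 2) and 53.2 ± 11.1 CPM, a 2.40-fold lower mean (2.65-fold and 2.06-fold within library types). Hoxb13 went the other way and was 49.7 times higher in the Xist-deleted cells.

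These differences did not pass the test over all genes. EdgeR called 0 of the 21 Hox genes tested and 0 of all 17132 genes (0%), where 16 of the Hox genes and 1741 of all genes had an unadjusted p under 0.05. The fit has 2 residual degrees of freedom, and each genotype pools a polyA-like with a total-like library. DESeq2 called 14 Hox genes, 13 lower and Hoxb13 higher, against 2.8% of all genes. With library type as a term in the fit of the 4 EpiSC libraries, 14 Hox genes were lower and Hoxb13 higher. Of all genes, 6.53% and 4.91% were (11.4% either way). Library type there equals the replicate number, so this term is a replicate block and leaves 1 residual degree of freedom. The p-values of that fit therefore rest largely on a spread estimated across genes. Between EpiSC genotypes, the library type term below means this fit. Leaving out a library gave 0 calls without wild-type replicate 1 (0% of all genes), 6 without wild-type replicate 2 (0.947%), 4 without Xist-deleted replicate 1 (0.271%) and 6 without Xist-deleted replicate 2 (0.539%), and Hoxb3, Hoxb4 and Hoxb13 were in each of the last 3. A fit of all 13 libraries with a single library type effect called 0 (0.00959% of all genes), as did the test on DESeq2 size factors (0%). Library ranges did not overlap for 17 Hox genes that were lower and for Hoxb13, higher (22.3% and 20.5% of all genes), and 3 overlapped. A gene near silent in either genotype could be tested only through the other, so these counts describe the genes that passed the filter. The median log2 change was -1.90 over the 21 tested Hox genes and 0.00 to 2 decimals over all genes.

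**Figure D2:**
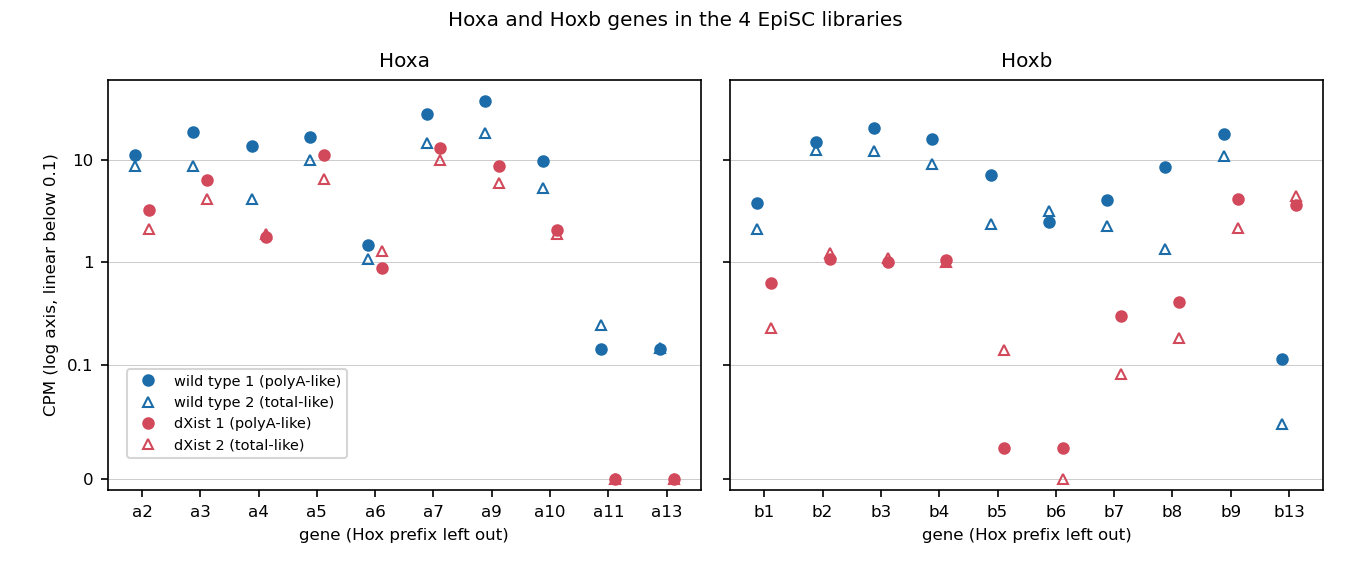
CPM of Hoxa and Hoxb genes in the 4 EpiSC libraries, on a log axis that is linear below 0.1 CPM. Circles are polyA-like and triangles total-like libraries, in blue for wild type and red for Xist-deleted (dXist). Red points lie below blue ones for Hoxb1 to Hoxb9, while Hoxb13 lies at 0.113 and 0.0484 CPM in wild-type cells and at 3.64 and 4.37 CPM in dXist.

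Along Hoxb the size of the difference varied between genes. At the 3′ end Hoxb1 was at 3.75 and 2.13 CPM in wild-type cells and 0.625 and 0.230 CPM in the Xist-deleted cells, a 6.88-fold lower mean (12.8-fold without Xist-deleted replicate 1). Hoxb2, which acts in the hindbrain and cranial neural crest, went from 14.8 and 12.3 CPM to 1.09 and 1.24 CPM (11.6-fold lower). Hoxb3 went from 20.4 and 12 CPM to 1.01 and 1.10 CPM (15.4-fold lower). In each of these genes both Xist-deleted libraries lay well below both wild-type ones.

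The largest ratios, at Hoxb5 and Hoxb6, rest on 4 and 1 counts in the Xist-deleted libraries. Hoxb4 was at 15.7 and 9.10 CPM against 1.06 and 1.01 CPM, 12-fold lower. Hoxb5, a trunk and enteric neural crest gene, was at 7.05 and 2.37 CPM against 0.0272 and 0.138 CPM, 57.0-fold lower. It had 299 counts in the wild type, and pooled counts gave a ratio of 78.0 with an exact 95% counting interval of 30.1 to 288. The fold of Hoxb5 was 28.7 without wild-type replicate 1, 34.1 without Xist-deleted replicate 1 and 174 without Xist-deleted replicate 2. Hoxb6 was at 2.45 and 3.15 CPM against 0.0272 and 0 CPM. A single Hoxb6 read was left in the Xist-deleted libraries, next to 152 in the wild type, and the ratio of pooled counts was 159 with an exact 95% counting interval of 28 to 6306. Toward the 5′ side Hoxb7 (4.01 and 2.27 against 0.299 and 0.0920 CPM) was 16.1-fold lower and Hoxb8 (8.52 and 1.35 against 0.407 and 0.184 CPM) 16.7-fold lower. Leaving out single libraries changed both values. The Hoxb7 fold was 34.1 without Xist-deleted replicate 1 and 10.5 without Xist-deleted replicate 2. The Hoxb8 fold was 4.58 without wild-type replicate 1, 28.8 without wild-type replicate 2 and 26.8 without Xist-deleted replicate 1. Hoxb9, a thoracic skeleton gene, was 4.58-fold lower, at 17.8 and 10.9 CPM against 4.10 and 2.16 CPM.

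Hoxb13 lies 74.0 kb beyond Hoxb9 in the 5′ direction. It was at 0.113 and 0.0484 CPM in wild-type cells and 3.64 and 4.37 CPM in the Xist-deleted cells. Per kb of exon it was then the first Hoxb gene in order, at 1.82 ± 0.235 CPM per kb (SD, n = 2). The log2 difference was 5.51 ± 0.61 (SE), with edgeR's adjusted p = 0.105. It was 5.45 ± 0.59 with the library type term in the EpiSC libraries (adjusted p = 1.54e-17). Hoxb13 was not called in the fit of all 13 libraries with library type. Log2 differences within library types, after adding 0.2 CPM, were 3.62 and 4.20. Hoxb13 was called without any one of wild-type replicate 2 or either Xist-deleted library, and not called without wild-type replicate 1, where the ratio of means was 82.8 in place of 49.7.

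Noncoding genes of the region differed in both directions. Hoxb3os, on the opposite strand to Hoxb3, was at 12.5 and 5.71 CPM in wild-type cells and 2.04 and 1.24 CPM in the Xist-deleted cells. It passed with the library type term (-2.40, adjusted p = 1.44e-07) and not without it (adjusted p = 0.262). Mir196a-1, between Hoxb9 and Hoxb13, was at 1.95 and 1.84 against 3.67 and 1.61 CPM, which overlap. Gm53, a long noncoding gene in the same gap, was at 19 and 23.7 CPM against 36.0 and 29.2 CPM (log2 0.63 ± 0.27, adjusted p = 0.528). In every untreated XEN library Gm53 had 0 counts. Gm11539, a pseudogene also in that gap, had a log2 difference of -1.13 ± 0.92 (SE, edgeR adjusted p = 0.719). Gm27605, close to Hoxb13, was at 0.339 and 0.290 CPM against 1.49 and 0.874 CPM, and passed as higher with the library type term alone (adjusted p = 0.0103). The flanking gene Ttll6, beyond Hoxb13, was at 1.81 and 1.79 against 2.47 and 2.02 CPM. Calcoco2, farther out, had a log2 difference of 1.49 ± 0.54 (SE, edgeR adjusted p = 0.462). Of 7 tested flanking genes of Hoxb, 2 were higher with the library type term and none lower, against 4.91% and 6.53% of all genes.

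**Figure D3:**
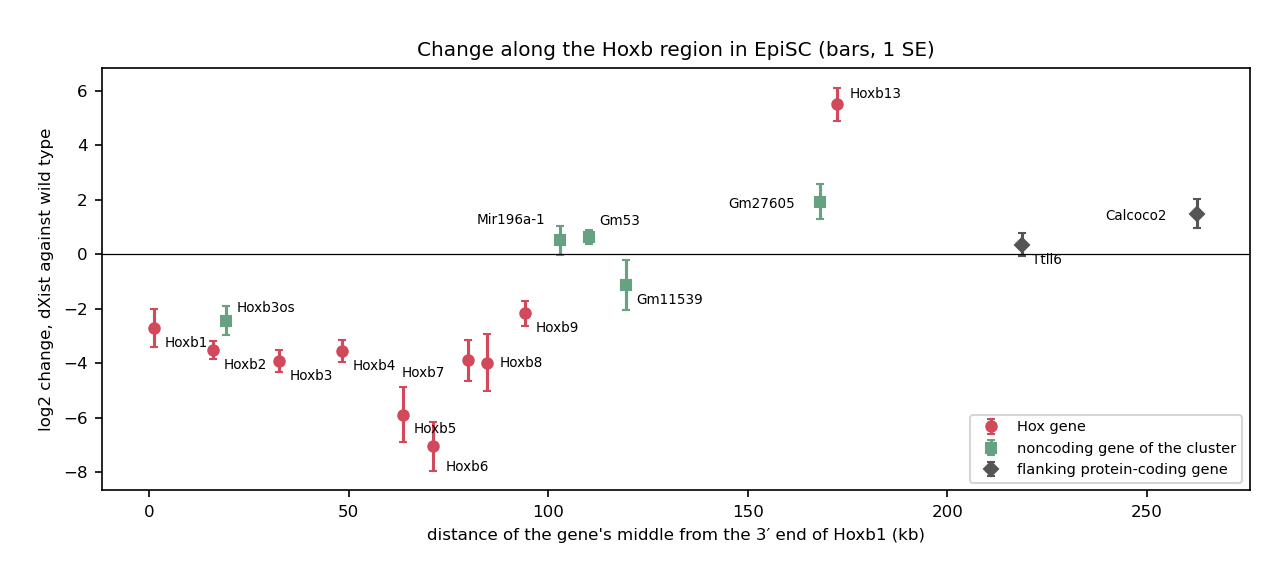
Log2 change in Xist-deleted (dXist) against wild-type EpiSC for the tested genes from Hoxb1 to Calcoco2, by distance in kb of the gene's middle from the 3′ end of Hoxb1. Points are edgeR estimates and bars 1 standard error. Values are negative from Hoxb1 (-2.72) through Hoxb6 (-7.05) to Hoxb9 (-2.16). Beyond Hoxb9 they are 0.51 at Mir196a-1, 0.63 at Gm53 and -1.13 at Gm11539. Gm27605 (1.92) and Hoxb13 (5.51) are positive.

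Hoxa genes were lower in Xist-deleted EpiSC by smaller amounts, without a steady trend along the cluster. Hoxa4 was at 13.5 and 4.16 against 1.77 and 1.89 CPM, 4.82-fold lower, and that fold was 2.28 without wild-type replicate 1 and 7.37 without wild-type replicate 2. Hoxa9 was at 37.2 and 18.1 against 8.61 and 5.89 CPM, 3.82-fold lower (2.50-fold without wild-type replicate 1). Hoxa10, a uterine and lumbar gene, was 3.77-fold lower, Hoxa2 3.73-fold and Hoxa3 2.62-fold (1.66-fold without wild-type replicate 1). These 5 were the Hoxa genes that passed with the library type term, with adjusted p between 3.49e-06 (Hoxa9) and 0.00586 (Hoxa3).

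Other Hoxa genes differed less. Hoxa7 was at 28.2 and 14.6 CPM against 12.9 and 9.94 CPM, 1.87-fold lower with no overlap (adjusted p = 0.552). Hoxa5, which patterns the lung and cervical spine, overlapped between genotypes at 16.6 and 9.82 against 11.0 and 6.44 CPM. So did Hoxa6, at 1.47 and 1.06 against 0.869 and 1.29 CPM. Hoxaas2, an antisense gene of this cluster, was at 8.66 and 7.11 against 1.71 and 0.690 CPM and passed as lower with the library type term (adjusted p = 2.83e-09).

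Hoxc and Hoxd hardly contributed. Hoxc6 was at 1.55 and 1.26 CPM in wild-type and 0.842 and 0.552 CPM in Xist-deleted EpiSC (adjusted p = 0.624). Hoxc13 overlapped, at 0.423 and 0.0968 against 0.598 and 0.184 CPM. Hoxc5, Hoxc11 and Hoxc12 stayed at or under 0.490 CPM in every library of the study. The 7 Hoxc genes other than Hoxc6 and Hoxc13 and all 9 Hoxd genes were too low for a test here.

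The promoters of 3 of these genes are printed because they give examples of a larger and a smaller EpiSC difference: Hoxb8 and Hoxb4 were lower by 16.7-fold (4.58-fold without wild-type replicate 1) and 12-fold, and Hoxa5 by 1.51-fold with overlapping ranges. Each is the 250 bases before the RefSeq start (GRCm38.p6), 5′ to 3′ on the gene's strand, with CpG dinucleotides, the sites of DNA methylation, in capitals. Hoxb8 is from chr11:96281655-96281904 (plus strand, 12 CpG), Hoxb4 from chr11:96318017-96318266 (plus strand, 14 CpG) and Hoxa5 from chr6:52204588-52204837 (minus strand, 28 CpG).
Hoxb8: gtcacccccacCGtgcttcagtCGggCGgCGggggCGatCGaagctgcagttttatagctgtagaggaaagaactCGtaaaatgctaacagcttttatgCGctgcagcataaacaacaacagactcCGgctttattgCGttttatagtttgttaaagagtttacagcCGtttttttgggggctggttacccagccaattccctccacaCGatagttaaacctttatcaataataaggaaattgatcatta
Hoxb4: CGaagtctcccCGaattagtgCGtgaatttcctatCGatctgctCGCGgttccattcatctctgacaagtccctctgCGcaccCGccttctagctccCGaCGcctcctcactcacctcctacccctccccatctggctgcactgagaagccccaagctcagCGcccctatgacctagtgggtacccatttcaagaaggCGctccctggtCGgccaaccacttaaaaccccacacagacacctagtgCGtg
Hoxa5: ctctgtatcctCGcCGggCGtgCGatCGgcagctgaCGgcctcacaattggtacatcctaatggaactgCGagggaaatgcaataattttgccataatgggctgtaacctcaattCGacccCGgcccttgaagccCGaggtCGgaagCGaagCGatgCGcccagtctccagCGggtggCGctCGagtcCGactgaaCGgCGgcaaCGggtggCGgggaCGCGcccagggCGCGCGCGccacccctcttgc
Windows were found for 22 of the 39 genes (24 windows). They held a median of 12.5 CpG (2 to 35), against 6 over all 32851 windows of the same length. TTTATG, the core letters of a caudal or posterior Hox site, was found on either strand in 5 of the 24 (20.8%) against 10.8% of all windows. The 5 were Hoxa7, Hoxb8, Hoxd3, Hoxd4 and Hoxd11. TGATNNAT, a PBX-HOX composite, was found in 4 (16.7% against 7.68%), which were Hoxa2, Hoxb1, Hoxb8 and Hoxd11. Matches were searched on both strands, and the motifs can share bases with each other. Methylation was not analysed here.

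Genes around the Hox network also differed between the EpiSC genotypes. Over all genes, 4.91% were higher and 6.53% lower with the library type term. With the library type term, 3 of 9 TALE cofactors were lower and none higher, among them Meis2 (40.6 and 20.8 against 6.19 and 6.76 CPM) and Pknox2 (31.4 and 24.8 against 12 and 13.9 CPM). Of 15 tested caudal, retinoic acid and trunk genes 4 were lower and none higher: Crabp1 and Crabp2, which bind retinoic acid in the cytoplasm, Aldh1a2, which makes it, and Gdf11, a trunk-to-tail signal. Both tested ParaHox-related genes were lower, Meox1 (16.6 and 15.1 against 1.30 and 1.15 CPM) and Gbx2 (48.6 and 37.9 against 15 and 12.9 CPM). Of 24 Polycomb and Trithorax genes Ezh1 and Cbx7 were higher and none lower. Ezh1 was at 21.2 and 21.0 against 58.6 and 55.2 CPM, and Cbx7 at 28.3 and 36.4 against 79.3 and 79.5 CPM. None of these passed without that term, where edgeR called 0 genes in all.

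Many markers of other cell types differed between the EpiSC genotypes as well. All 12 fibroblast markers were tested, 10 were lower with the library type term and 11 had no overlap. Their sum was 904 and 767 CPM in wild-type and 259 and 203 CPM in Xist-deleted EpiSC, and 40.5 to 262 CPM in XEN. Most of the XEN sum was Fbn1 (739 to 7548 counts per library), and Col1a1 had only 2 to 19 counts there. Col3a1 was at 135 and 148 against 5.62 and 4.79 CPM, Dcn at 7.82 and 7.65 against 0.163 and 0.138 CPM, and Prrx1 at 10.9 and 4.26 against 0.435 and 0.138 CPM. Lum was the marker at 0 in both Xist-deleted libraries. Primitive streak and mesoderm markers summed to 58.7 and 41.6 against 15.8 and 15 CPM. Of 5 tested streak and mesoderm markers 2 were lower with the library type term, Meox1 (values above) and Foxc1 (25.9 and 16.3 against 2.01 and 1.93 CPM). Eomes overlapped between the genotypes (12.5 and 4.55 against 9.72 and 8.24 CPM), and Mixl1 was at 0.282 and 0.145 against 0.299 and 0.414 CPM. Neural markers summed to 33.0 and 32.6 against 11.5 and 10.5 CPM. Epiblast markers summed to 1785 and 1336 against 2083 and 1601 CPM, with Pou5f1, Otx2 and Utf1 higher under the library type term. The part of these cells in the Hox differences was not tested.

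Xist deletion in XEN gave no called Hox gene. EdgeR called 0 of 11 tested (0.0217% of all 18393 genes), 3 had an unadjusted p under 0.05, and DESeq2 also called 0 (2.57% of its genes). Ranges did not overlap for 3 genes that were lower and 1 that was higher (14.8% and 13.6% of all genes). The median log2 change was -1.02 over the 11 and 0.00 to 2 decimals over all genes.

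The 3 with an unadjusted p under 0.05 were all Hoxc genes. Hoxc10 was at 1.84 and 1.40 CPM in wild-type cells and 0.192, 0.374 and 0.204 CPM in the Xist-deleted cells, a log2 difference of -2.64 ± 0.74 (SE, adjusted p = 0.329). Hoxc13 was at 2.38 and 1.44 CPM against 8.56, 5.31 and 3.56 CPM, 1.60 ± 0.61 higher (adjusted p = 0.420). Hoxc4 rested on 1 library, at 0.770 and 0.0638 CPM against 0, 0.0748 and 0 CPM (adjusted p = 0.422). Hoxc10 and Hoxc13 sit in the same cluster and differed in opposite directions, each without overlap.

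Other Hox genes of XEN overlapped or were near the limit of detection. Hoxa10 and Hoxb4 were lower without overlap, Hoxb4 at 0.201 and 0.606 CPM against 0.160, 0 and 0.0339 CPM. Xist-deleted replicate 3 held only 8 Hox genes with a count, against 18 and 16 in the other two. Hoxc9 was at 1.15 to 2.27 CPM across these 5 libraries and overlapped.

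**Figure D4:**
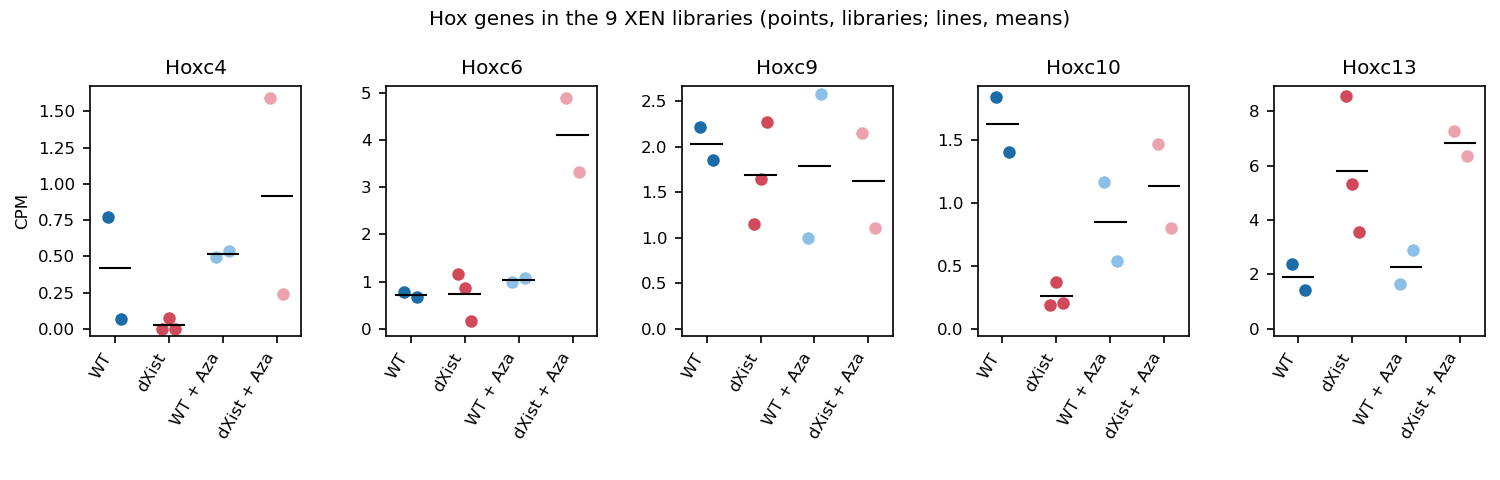
CPM of 5 Hox genes in the 9 XEN libraries (points) with group means (lines), each panel on its own linear axis from 0. Treated cells labelled Xist-deleted (dXist + Aza) hold Hoxc6 at 4.90 and 3.33 CPM, above the 7 other libraries, and Hoxc10 is lowest in untreated dXist cells.

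Whether the effect of Xist deletion differed between EpiSC and XEN was tested as an interaction over the 9 untreated libraries. None of 24 Hox genes passed in edgeR (0.0101% of all genes), Hoxb7 and Hoxb8 had an unadjusted p under 0.05 (adjusted p = 0.420 and 0.406), and DESeq2 called 0 (2.42%). Hoxb1, Hoxb2, Hoxb3, Hoxb5 and Hoxb6 had no count in untreated XEN, so a change there could not be measured. Hoxb7 and Hoxb8 had 0 counts in wild-type XEN. In untreated Xist-deleted XEN they had 3, 0 and 0 counts (Hoxb7) and 1, 2 and 0 counts (Hoxb8). A change of these genes in XEN was therefore hardly measurable either. Without the filter on low counts Hoxb8 passed (adjusted p = 0.043), beside 1.76% of all genes.

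No Hox gene passed the test for Aza in wild-type XEN. EdgeR called 0 of 11 (0.582% of all genes), 0 had an unadjusted p under 0.05, and DESeq2 called 0 (3.63% of its genes). Hoxc6 and Hoxc8 were higher without overlap (28.1% of all genes) and Hoxc10 lower (31.7%). The log2 change of Hoxc10 was -0.87, and 3.26 with library type as a term over all 13 libraries. Only the EpiSC groups hold both library types and so set that term, and Hoxc10 had 7, 0, 0 and 0 counts there. Hoxc6 was at 0.996 and 1.08 CPM against 0.770 and 0.670 CPM, and Hoxc8 at 0.498 and 0.323 CPM against 0.0335 and 0.0638 CPM (6 counts against 3 in all). Both treated libraries were total-like and both untreated ones polyA-like, so the effects of Aza and of library type cannot be told apart here. The treated libraries were also the shallowest, and 3 counts in replicate 1 equal 0.498 CPM.

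Aza in Xist-deleted XEN came with more Hox genes detected, at low levels. Of the 39 genes, 23 had a count in the 3 untreated libraries together and 37 in the 2 treated libraries labelled Xist-deleted. Of the 16 Hox genes at 0 in the untreated libraries, 15 had a count in the treated ones (93.8%), and of all 11154 genes at 0 there 6222 did (55.8%). Without treated replicate 1 the shares were 6 of 16 (37.5%) and 18.9% of all genes. Single libraries held 18, 16 and 8 genes untreated, and 36 and 25 treated. Depths were 27917680 to 34499305 counts untreated, and 19349948 and 29533263 treated. Among treated Hoxd genes, 7 had a count in replicate 1 and 2 in replicate 2.

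EdgeR called 0 of the 11 Hox genes tested in that contrast (0.0761% of all genes), and 4 had an unadjusted p under 0.05: Hoxc4, Hoxc6, Hoxc8 and Hoxc10. DESeq2 called 2, Hoxc4 and Hoxc6, against 14.1% of all genes. Hoxc6, a thoracic patterning gene, was at 1.15, 0.860 and 0.170 CPM untreated and 4.90 and 3.33 CPM treated, 5.65 times higher (log2 2.35 ± 0.78, adjusted p = 0.112). Hoxc10 was at 0.192, 0.374 and 0.204 CPM untreated and 1.47 and 0.798 CPM treated. Both wild-type groups span 0.538 to 1.84 CPM. The untreated Xist-deleted libraries are shared with the comparison of genotypes in XEN above, so the higher Hoxc10 here and the lower one there are not independent. Ranges of 6 genes did not overlap, all higher (23.9% of all genes), none was lower (18.4%), and 5 overlapped. Hoxc13 and Hoxc9 were among the latter, Hoxc13 at 7.29 and 6.35 CPM and Hoxc9 at 2.14 and 1.11 CPM.

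Hoxc4 and Hoxc8 depended on treated replicate 1. Hoxc4 was at 1.59 CPM there and 0.243 CPM in replicate 2, against 0 to 0.0748 CPM untreated. Hoxc8 was at 0.674 and 0.139 CPM. Without replicate 2, the library labelled Xist-deleted that held 242 CPM of Xist, both passed (adjusted p = 0.0388 and 0.0384), as did 23.9% of all genes. Without replicate 1 none passed (0% of all genes), and the Hoxc4 change was 2.98 (adjusted p = 0.437). Extraembryonic endoderm markers summed to 24345 CPM in treated replicate 1 and 55882 CPM in replicate 2, against 55907 to 74529 CPM untreated. Fibroblast markers, mostly Fbn1 here, summed to 205 and 171 CPM against 40.5 to 262 CPM. The part of either marker set in these values was not tested.

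The effect of Aza was also compared between the genotypes as an interaction. None of 11 Hox genes passed in edgeR (0.245% of all genes) or DESeq2 (1.35%). Hoxc10 alone had an unadjusted p under 0.05 in edgeR (0.0317, adjusted p = 0.603), with a log2 effect 2.82 ± 1.13 (SE) larger in the Xist-deleted cells. With library type as a term over all 13 libraries this became -1.14. Only the EpiSC groups hold both library types, so that term is set by them. Hoxc10 had 7 and 0 counts in wild-type EpiSC and 0 and 0 in Xist-deleted EpiSC. With the term, the direction of this effect therefore rests on those few counts.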

How the data were processed

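The deposited table holds raw counts of reads per gene. The authors made these counts against GRCm38 (mm10) using FastQC, STAR (2.7.9a) and featureCounts (version 2.0.1), per the submitters' processing notes. Strand setting, annotation release and handling of multi-mapped reads stand as not given in the sources used here. The labels name more than one library kit without assigning them. GENCODE vM21 gave symbols to 38240 of 38377 identifiers (99.64%).

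Tests ran in edgeR 4.0.16 under R 4.3.3 (TMM, filterByExpr, robust quasi-likelihood F test, Benjamini-Hochberg over all genes, called under 0.05). Fits used the 9 untreated libraries (19733 genes), the 9 XEN libraries (18393) and the 4 EpiSC libraries (17132), with 24, 11 and 21 Hox genes tested. They were also run on simulated counts with a fixed spread and no library type effect. That does not show how they perform on these libraries. Alternatives were DESeq2 1.42.0, other scaling, no filter, a replicate block, the compared groups alone and leaving out each library. Another was a library type term over all 13 libraries (total-like above 5% of counts from the mitochondrial ribosomal RNAs and Rn7sk). Between EpiSC genotypes the replicate block equals library type, and there it is what the library type term names. In all other comparisons that name means the fit of 13 libraries. Standard errors are the log2 change over the square root of F. Folds are ratios of group mean CPM. Against 0 counts they are bounds from 3 counts over the group, and with 1 to 3 counts they are ratios of pooled counts with exact 95% intervals. Intervals and floors cover counting error only. No pair of replicates agreed within sampling noise (chi-square per gene 3.89 to 524).

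All Hox genes called in any comparison or with a mean of at least 1 CPM in a group were named, and up to 4 called genes of each other list, except 3 genes not reported here, which stay in the counts, sums and tests. Members and lists were chosen with earlier results of these data known.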

Additional observations from a re-analysis of the deposited data

How the results depend on the processing

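For wild-type EpiSC against XEN, 19 Hox genes were called, 15 to 16 when leaving out a library and 17 to 21 otherwise. For Xist deletion in EpiSC the count was 0, but 14 with DESeq2, 15 without the filter on low counts and 0 to 6 when leaving out a library. The 6 without wild-type replicate 2 were Hoxa4, Hoxb2, Hoxb3, Hoxb4, Hoxb8 and Hoxb13. The replicate block, which in EpiSC is also the library type, gave 15. EpiSC libraries of the same number deviated together (r = 0.748 over genes, from 2 pairs, so pairing beyond library type is not shown). The block gave 0 calls in the other comparisons with 0. For Aza in Xist-deleted XEN the count was 0, but 2 with DESeq2, 1 without the filter (Hoxc4), 1 with the library type term (Hoxb9, named after its value was seen) and 0 to 2 when leaving out a library. Hoxb9 had 0, 1 and 0 counts in untreated Xist-deleted XEN and 6 and 8 in the treated libraries with that label. It passed the filter on low counts only with the EpiSC libraries in the fit, which called 6.68% of all genes. The difference in Xist effect between cell types gave 0, and 1 (Hoxb8) without the filter. Xist deletion in XEN, Aza in wild-type XEN and the Aza interaction gave 0 in each alternative run. With the library type term over all 13 libraries, 2 changes of Hoxc10 reversed: Aza in wild-type XEN became 3.26 and the Aza interaction -1.14. That term is set by the EpiSC groups, where Hoxc10 had 7, 0, 0 and 0 counts. The cause of the other shifts was not tested. Where a group is left with 1 library, that library is assumed to vary like the others. The 2 groups alone could not give an interaction. XEN libraries held 80 to 596 Hox counts and EpiSC libraries 1238 to 9250, so XEN values carry the larger counting error.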
